A study of Arabidopsis thaliana with 9 samples.

Results

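CONSTANS (CO) and 6 CONSTANS-LIKE (COL) genes of Arabidopsis thaliana were followed across wild-type seedlings and a pair of transgenic lines with extra CO. The 7 genes, chosen by locus from the 32833 genes of the deposited count table, were CO (AT5G15840), COL1 (AT5G15850), COL2 (AT3G02380), COL3 (AT2G24790), COL4 (AT5G24930), COL5 (AT5G57660) and COL9 (AT3G07650). All 7 passed the filter on low counts and were among the 19149 genes tested. RNA came from seedlings sampled 7 days after germination at zeitgeber time 14 (14 h into the light period). The plants grew in soil at 22 °C under days of 16 h light and 8 h darkness.

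There were 3 genotypes with 3 replicates each, all labelled with the accession Col-0. Col-0 was the wild type. 35S:CO carries CO under the 35S promoter of cauliflower mosaic virus, which is active in most tissues. SUC2:CO carries an HA-tagged CO under the SUC2 promoter, which drives expression in the companion cells of the phloem and belongs to a sucrose carrier gene, and its genotype label, SUC2:HA:CO (co-10), places the transgene in the co-10 background, a mutant allele of CO. SUC2:CO therefore differs from Col-0 in the transgene and in the resident CO allele, and from 35S:CO in promoter, tag and background together, which cannot be told apart here. Whether each line descends from 1 insertion, and how many seedlings were pooled, is not given in the sources used here. Nothing in the labels says that replicates came from separate sowings, so p-values measure the spread between these samples only. In these bulk samples, fewer cells of a type and less RNA per cell cannot be told apart. Since all samples share zeitgeber time 14, a change in level and a shift in daily timing cannot be told apart either.

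CO is a transcription factor with a pair of B-box zinc fingers at its start and a CCT domain at its end. Its transcript is under clock control, and in long days its protein is stabilised by light in the late afternoon, binds DNA through the CCT domain together with NF-Y subunits, and activates the florigen gene FT in the companion cells of the leaf phloem. The COL genes share this layout. COL1 and COL2 are the closest relatives of CO, and COL1 lies beside CO on chromosome 5. COL3 acts in light responses and interacts with COP1, the ubiquitin ligase that also targets CO. COL4 has been described as a repressor of flowering, COL5 as able to advance flowering in short days when overexpressed, and COL9 as delaying flowering through lower CO and FT.

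Because the genes are related in sequence, the stretch that is most alike in CO and COL1 is shown to indicate how far reads could be told apart. It is a run of 60 coding bases within a B-box, read from the RefSeq TAIR10.1 genome, in each gene on the coding strand and 5′ to 3′, with the best ungapped match from each other member. Capitals mark bases that differ from CO.
CO: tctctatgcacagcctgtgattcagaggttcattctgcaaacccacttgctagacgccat
COL1: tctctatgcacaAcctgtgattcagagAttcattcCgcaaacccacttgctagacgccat
COL2: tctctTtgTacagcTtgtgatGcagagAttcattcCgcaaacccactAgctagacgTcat
COL3: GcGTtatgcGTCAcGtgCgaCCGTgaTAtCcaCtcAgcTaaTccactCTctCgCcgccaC
COL4: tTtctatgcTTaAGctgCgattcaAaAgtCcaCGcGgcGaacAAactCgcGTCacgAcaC
COL5: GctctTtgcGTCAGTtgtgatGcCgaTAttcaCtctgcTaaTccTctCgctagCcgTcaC
COL9: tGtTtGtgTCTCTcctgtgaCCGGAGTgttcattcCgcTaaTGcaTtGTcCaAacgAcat
COL1 differed from CO at 3 of the 60 bases and COL2 at 8, whereas COL3, COL4, COL5 and COL9 differed at 25, 21, 20 and 25. Over whole transcripts the longest identical run between CO and COL1 was 26 bases, and their closest windows of 100 bases differed at 8 positions. CO and COL2 shared at most 25 identical bases, with 7 differences in the closest window. The only other pair as close in a window was COL3 and COL4, with 8 differences, next to COL1 and COL2, also with 8. COL9 had at least 30 differences from each other member in its closest windows. The read length is not given in the sources used here.

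In the RefSeq annotation of TAIR10.1, CO is at chr5:5170162-5173085 and COL1 at chr5:5176091-5177897, both on the minus strand. COL2 is at chr3:487069-489467 (minus), COL3 at chr2:10566836-10568145 (plus), COL4 at chr5:8589457-8590949 (plus), COL5 at chr5:23355337-23356989 (plus) and COL9 at chr3:2441565-2444532 (plus). The submitters' processing notes name the build TAIR10, and the deposited table holds no coordinates. Loci on the opposite strand overlap 3 of the 7 genes. AT5G15843 shares 738 exon bases with CO, the long noncoding RNA AT5G15845 covers all 1698 exon bases of COL1, and AT3G02370 and AT3G02390 share 212 and 506 exon bases with COL2. Whether the counting used the strand of the libraries is not stated, so the counts of CO, COL1 and COL2 are uncertain to that extent.

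Library totals ran from 25563118 to 26636174 counts, and 3 counts corresponded to between 0.104 and 0.125 CPM (counts per 1000000 of the TMM-scaled library total), a floor that covers counting error only. Every member exceeded 50 counts in every library. Leaf markers were abundant in every library, with 5 mesophyll genes summing to between 69030 and 92740 CPM. Root markers were nearly absent, since the 5 genes summed to at most 0.557 CPM and EXPA7 and EXPA18 had 0 counts in all 9 libraries. Companion cell markers summed to 414 to 552 CPM in Col-0, 498 to 583 CPM in 35S:CO and 547 to 556 CPM in SUC2:CO, with all 5 detected in each. Flower markers summed to 0.341 to 0.623 CPM in Col-0, where AP1 and AP3 were at 0, and to 0.828 to 2.70 CPM in 35S:CO and 1.58 to 4.31 CPM in SUC2:CO. The part of these markers in the results below was not tested.

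At zeitgeber time 14, the only time sampled, wild-type seedlings held little CO beside COL3, COL4, COL5 and COL9. Between genes, levels were compared per length, as CPM per kilobase of annotated exon. In Col-0, COL4 came first at 141 ± 8.02 CPM per kilobase, followed by COL3 at 114 ± 7.37, COL9 at 32.4 ± 4.96, COL5 at 12.3 ± 1.91, COL1 at 4.35 ± 0.377, CO at 3.15 ± 0.377 and COL2 at 1.80 ± 0.412 (SD, n = 3 each). No neighbours in this order overlapped over the 3 replicates. CO made up 1.02% ± 0.109 of the summed level of the 7 genes in Col-0 (SD, n = 3), 36.0% ± 3.39 in 35S:CO and 4.76% ± 0.368 in SUC2:CO. In 35S:CO, CO overlapped with COL4 at the top of the order, at 218 ± 18.2 and 203 ± 18.9 CPM per kilobase. COL1 and COL5 also overlapped there, at 8.87 ± 1.54 and 8.19 ± 0.745. In SUC2:CO, CO stood in the fifth place and overlapped with COL5, at 18.2 ± 2.12 and 18.8 ± 2.32 CPM per kilobase, below COL9 at 35.4 ± 1.151. COL2 was last in all 3 genotypes.

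**Figure D1:**
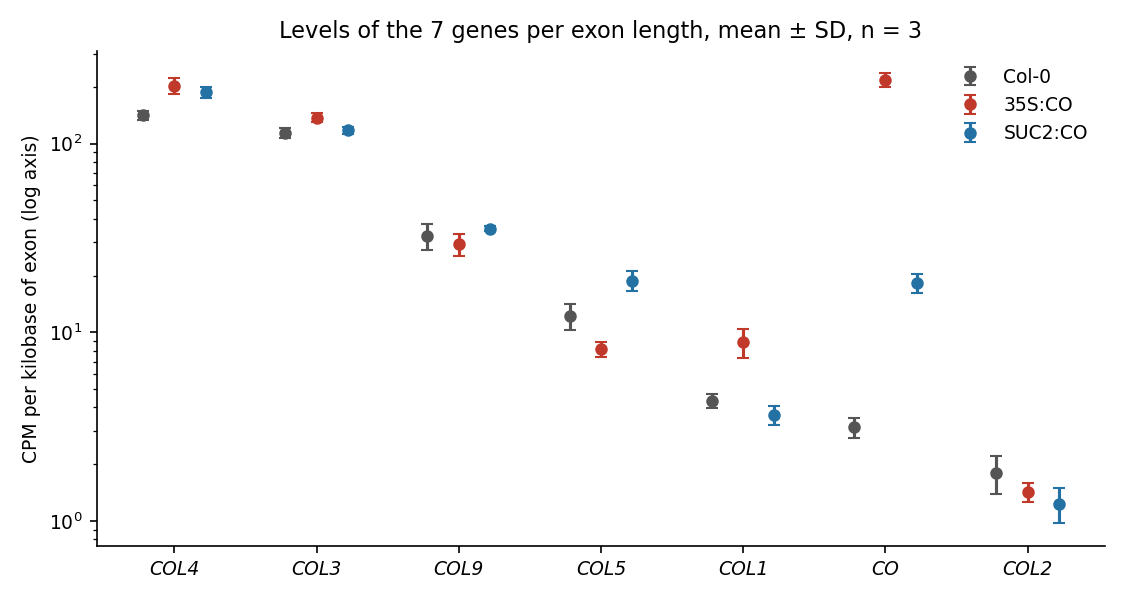
Level of each gene in CPM per kilobase of annotated exon on a log axis, ordered by the Col-0 mean, with points for the mean of 3 replicates and bars for the SD. CO moves from 3.15 in Col-0 to 18.2 in SUC2:CO and 218 in 35S:CO, while the other 6 genes keep within a narrower span.

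The exon length of CO is 2924 bases because 1 of its 2 annotated transcripts retains the intron, and the annotated exons of COL4 equal its coding length of 1089 bases and hold no UTR. Per kilobase of coding sequence, an alternative chosen after seeing the data, COL3 preceded COL4 in Col-0, at 167 ± 10.8 and 141 ± 8.02, CO overlapped with COL1, at 8.20 ± 0.983 and 6.92 ± 0.599, and CO was 2.03% ± 0.219 of the 7 genes (SD, n = 3 each). On that scale CO was first in 35S:CO without overlap, at 567 ± 47.4 against 203 ± 18.9 for COL4, and made up 53.8% ± 3.62. In SUC2:CO it stood in the fourth place at 47.5 ± 5.52.

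CO itself was counted at 9.54, 10.09 and 7.97 CPM in Col-0 replicates 1, 2 and 3, at 576, 658 and 676 CPM in 35S:CO, and at 48.6, 50.9 and 60.3 CPM in SUC2:CO. The 3 genotypes did not overlap, with 35S:CO highest and Col-0 lowest. By mean CPM, CO exceeded Col-0 69.2-fold in 35S:CO and 5.79-fold in SUC2:CO, and the log2 difference between the lines was 3.58. The log2 fold changes had 95% intervals of 5.77 to 6.45, 2.24 to 2.83 and 3.28 to 3.88. Counts do not separate transgene from resident transcripts, nor do they show which part of the SUC2:CO value comes from the co-10 allele. The transcript of SUC2, whose promoter drives the transgene in SUC2:CO, was lower than in Col-0 in both lines. Its log2 fold changes were -0.95 in SUC2:CO (adjusted p 0.00099) and -0.49 in 35S:CO (adjusted p 0.046). Of the other companion cell markers, AHA3 and SULTR2;1 were higher in both lines, at 0.66 and 0.99 in SUC2:CO and 0.56 and 0.74 in 35S:CO. NAKR1 was higher in SUC2:CO (0.39), and APL passed in neither line. The calls of these markers were not checked under other settings, and their cause was not tested.

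**Figure D2:**
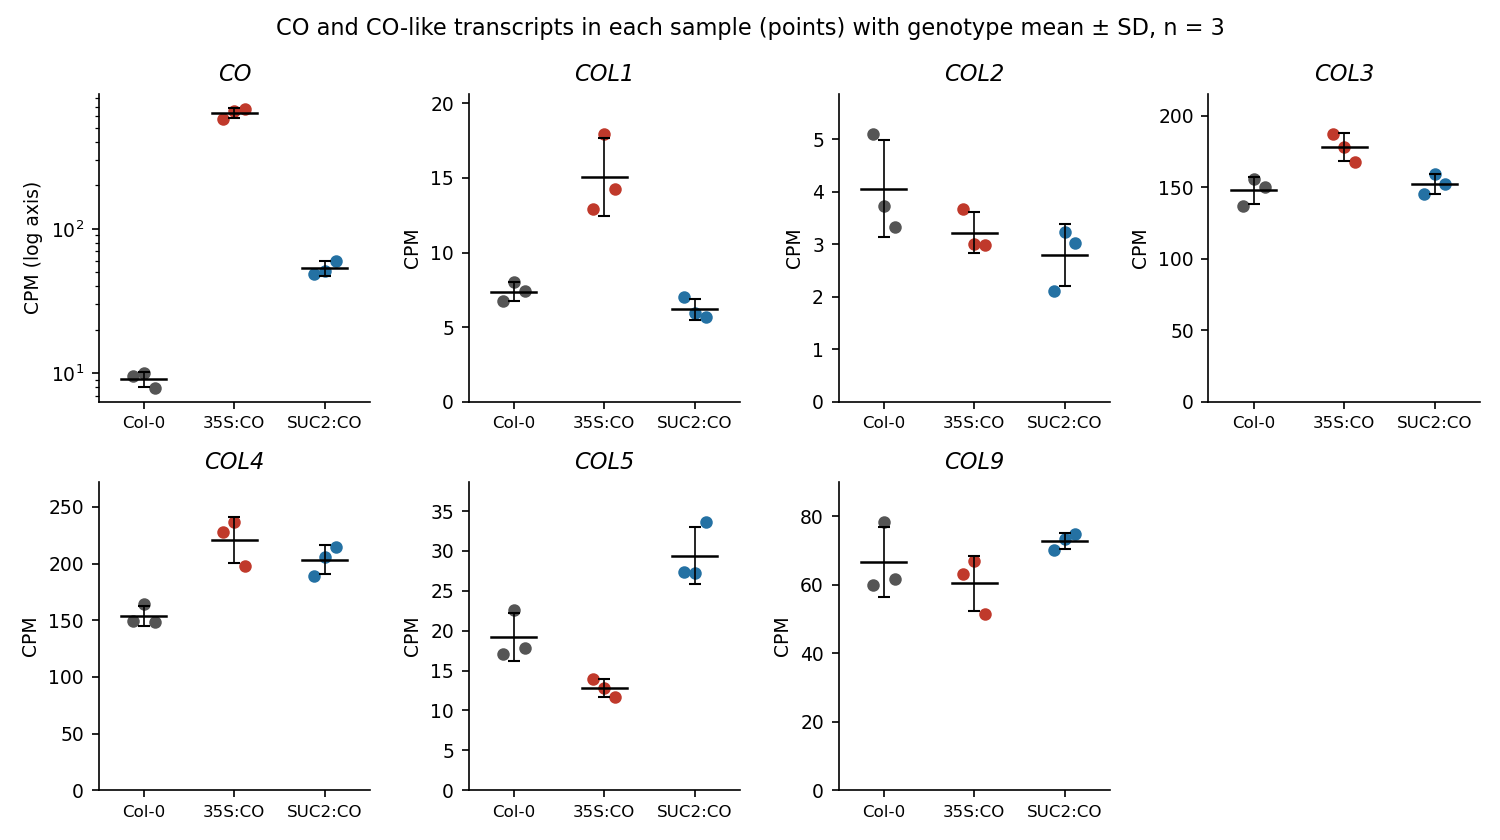
CPM of each gene in each sample, with points for the 3 replicates of a genotype, a line for the mean and bars for the SD. The axis is logarithmic for CO and linear from 0 for the others. CO separates all 3 genotypes, COL1 is raised in 35S:CO, COL4 is raised in both lines, and COL5 is lowest in 35S:CO and highest in SUC2:CO.

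The first question was which of these transcripts differ from the wild type when CO is broadly expressed. 4 of the 7 genes changed at an adjusted p under 0.05, with CO, COL1 and COL4 higher and COL5 lower, where 11.8% of all tested genes were called (6.32% higher and 5.48% lower). The median log2 fold change of the 7 genes was 0.27, against -0.04 over all tested genes. Replicates did not overlap in 5 of the 7 genes, the 4 called genes and COL3, as in 29.1% of all tested genes.

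COL1, whose overexpression is known to shorten the circadian period, was at 6.74, 8.01 and 7.41 CPM in Col-0 and at 12.9, 18.0 and 14.3 CPM in 35S:CO. Every 35S:CO replicate lay above every Col-0 replicate. The rise was 1.03 ± 0.15 on the log2 scale (SE, adjusted p 0.0016), a 2.04-fold difference in mean CPM. COL1 gained 7.67 CPM on the Col-0 mean in 35S:CO, where CO gained 627 CPM. The locus on the opposite strand of COL1, AT5G15845, was at 1.08 CPM in Col-0 and 1.92 CPM in 35S:CO (log2 fold change 0.83, adjusted p 0.15). AT5G15843, on the opposite strand of CO, was at 0.164 and 0.691 CPM (log2 fold change 2.04, adjusted p 0.048). The part of reads shared with CO, or of these overlapping loci, in the COL1 value was not tested.

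Beyond the overlapping loci, the 3 nearest tested genes on each side of the CO to COL1 interval held 1 call in 35S:CO, where 11.8% of all tested genes were called. AT5G15810 was lower, with a log2 fold change of -0.56 (adjusted p 0.037). It was the 1 call in SUC2:CO as well, at -0.89 (adjusted p 0.0020), where 32.3% of all tested genes were called. The other 5, AT5G15802, AT5G15820, AT5G15860, AT5G15870 and AT5G15880, had log2 fold changes from -0.16 to 0.66 in 35S:CO and from -0.33 to 0.36 in SUC2:CO, with adjusted p of at least 0.078.

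COL4, described as a repressor of flowering, was at 149, 164 and 149 CPM in Col-0 and at 228, 236 and 197 CPM in 35S:CO. The groups did not overlap, and replicate 3 was the lowest of the 35S:CO samples. The rise was 0.52 ± 0.10 on the log2 scale (SE, adjusted p 0.0088), or 1.43-fold in mean CPM. COL5 moved the other way, from 17.1, 22.6 and 17.8 CPM in Col-0 to 13.96, 12.8 and 11.6 CPM in 35S:CO. It fell by 0.58 ± 0.14 on the log2 scale (SE, adjusted p 0.023), to 0.668 of the Col-0 mean. This fall was the least stable of the 4 calls. Its adjusted p ran from 0.0079 to 0.0895 over the 18 alternatives and was over 0.05 without 35S:CO replicate 2 (0.0895) or 3 (0.0641), without Col-0 replicate 2 (0.0678, with a log2 fold change of -0.42), and in a fit of only these genotypes (0.0564). With the replicate block, that fit gave an adjusted p of 0.019 at a log2 fold change of -0.54.

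COL3, COL2 and COL9 did not pass the test in 35S:CO. COL3 was at 137, 156 and 150 CPM in Col-0 and at 187, 178 and 168 CPM in 35S:CO, without overlap. Its log2 fold change was 0.27, with a 95% interval of 0.07 to 0.47 and an adjusted p of 0.085, or 0.017 with DESeq2. COL2 was at 5.11, 3.74 and 3.34 CPM in Col-0 and at 3.67, 3.01 and 2.99 CPM in 35S:CO, with overlapping replicates. Its log2 fold change was -0.33 with a 95% interval of -0.84 to 0.17. COL9 was at 59.8, 78.3 and 61.6 CPM in Col-0 and at 63.1, 66.8 and 51.4 CPM in 35S:CO, also overlapping. Its log2 fold change was -0.14 with a 95% interval of -0.42 to 0.15.

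The same question was asked of SUC2:CO, where the phloem promoter drives CO in co-10. 3 of the 7 genes changed, CO, COL4 and COL5, all higher, where 32.3% of all tested genes were called (15.5% higher and 16.8% lower). The median log2 fold change of the 7 genes was 0.13, against -0.02 over all tested genes. Replicates did not overlap in 4 of the 7 genes, the 3 called genes and COL2, as in 47% of all tested genes.

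COL5 was at 27.4, 27.3 and 33.6 CPM in SUC2:CO, above each of the Col-0 values of 17.1 to 22.6 CPM. The rise was 0.62 ± 0.14 on the log2 scale (SE, adjusted p 0.0071), or 1.54-fold in mean CPM. COL4 was at 189, 206 and 215 CPM, again above all Col-0 replicates. It rose by 0.40 ± 0.10 on the log2 scale (SE, adjusted p 0.013), or 1.32-fold in mean CPM, and its adjusted p was 0.0518 without SUC2:CO replicate 3.

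COL1 was not raised in this line. It was at 6.99, 5.94 and 5.66 CPM in SUC2:CO, overlapping with Col-0, with a log2 fold change of -0.25 and a 95% interval of -0.59 to 0.09. COL2 was at 2.12, 3.23 and 3.02 CPM, each below the lowest Col-0 value of 3.34 CPM. Its log2 fold change of -0.54 had a 95% interval of -1.05 to -0.03 and an adjusted p of 0.096. COL3, at 145, 159 and 152 CPM, had a log2 fold change of 0.04 with a 95% interval of -0.16 to 0.24. COL9, at 70.1, 73.5 and 74.7 CPM, had one of 0.13 with a 95% interval of -0.15 to 0.41, and both genes overlapped with Col-0.

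**Figure D3:**
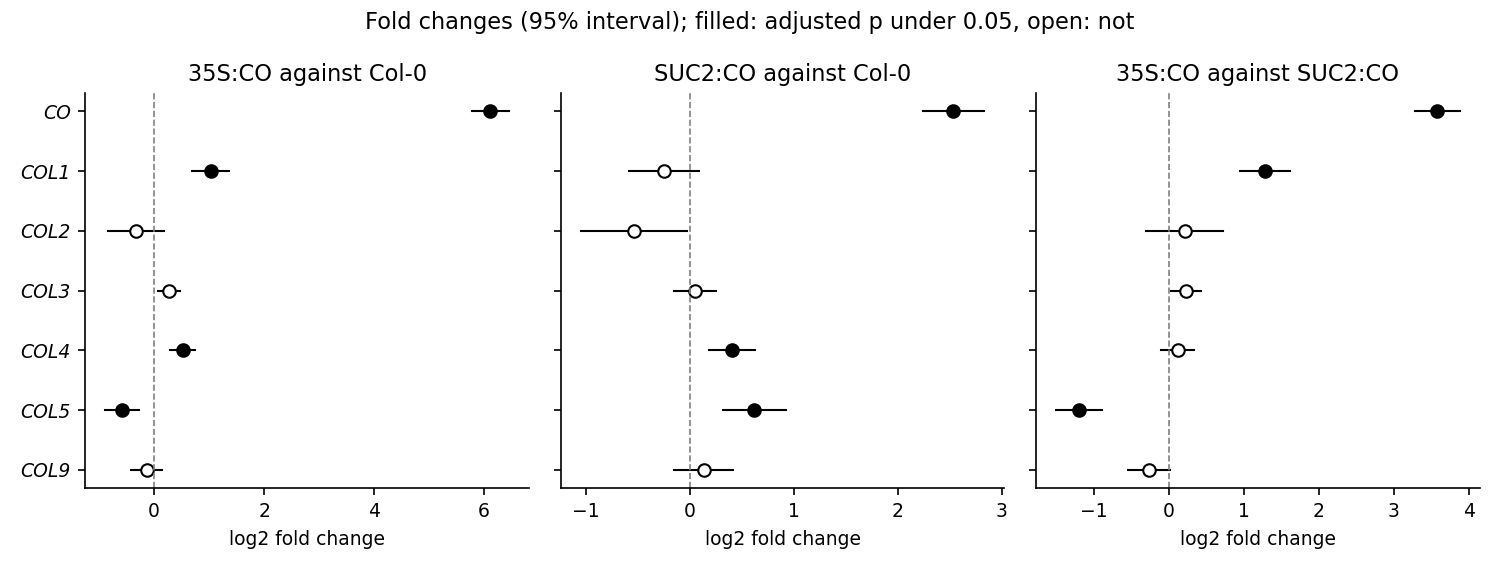
log2 fold changes of the 7 genes in the 3 comparisons, with bars for the 95% interval and filled points for an adjusted p under 0.05. Each panel has its own horizontal axis. COL5 lies below 0 in 35S:CO and above 0 in SUC2:CO, at -0.58 and 0.62, and COL4 lies above 0 in both, at 0.52 and 0.40.

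The lines share their Col-0 samples, so their changes against Col-0 are not independent, and the difference between the lines was tested directly. 3 of the 7 genes differed, CO and COL1 higher and COL5 lower in 35S:CO, where 18.8% of all tested genes were called (9.27% higher and 9.5% lower). The median log2 fold change of the 7 genes was 0.21, against 0.01 over all tested genes. Replicates did not overlap in 5 of the 7 genes, the 3 called genes, COL3 and COL9, as in 40.9% of all tested genes. COL1 was higher in 35S:CO by 1.28 ± 0.15 on the log2 scale (SE, adjusted p 0.00041), 2.43-fold in mean CPM. COL5 was lower by -1.20 ± 0.14 (SE, adjusted p 0.00033), at 0.435 of the SUC2:CO mean. These calls held under all 18 alternatives.

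COL4 did not pass this test, with a log2 difference of 0.12 and a 95% interval of -0.11 to 0.34. The differences of the remaining genes were 0.22 for COL3 (0.02 to 0.42, adjusted p 0.11), 0.21 for COL2 (-0.31 to 0.72) and -0.27 for COL9 (-0.55 to 0.02). The 6 CO-like genes together summed to 399 ± 29.9 CPM in Col-0, 490 ± 38.6 CPM in 35S:CO and 467 ± 22.6 CPM in SUC2:CO (SD, n = 3 each). The ranges of both lines, 445 to 515 CPM and 441 to 484 CPM, lay above the Col-0 range of 375 to 432 CPM, and COL3 and COL4 supplied most of the sum.

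Within a genotype the genes differed in how closely replicates repeated. The coefficient of variation of CPM was 4.63% to 6.46% for COL3 and 5.67% to 9.31% for COL4, the most abundant of the CO-like genes. It reached 22.9% for COL2, the least abundant, and 3.25% to 15.3% for COL9. COL1 varied most in 35S:CO, at 17.4% against 8.66% in Col-0.

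The COL family holds 10 further genes with a B-box and a CCT domain, of which 8 were tested. COL11 and COL12 had 0 counts in every library. In 35S:CO, 4 of the 8 changed, with COL6, COL7 and COL16 higher and COL13 lower, where 11.8% of all tested genes were called. The median log2 fold change of the 8 genes was 0.26, against -0.04 over all tested genes. COL7, known from work on shoot branching and shade responses, had the largest change of the family apart from CO. It was at 0.378, 0.664 and 0.557 CPM in Col-0, 27.8, 32.5 and 20.8 CPM in 35S:CO, and 0.794, 1.21 and 0.957 CPM in SUC2:CO. The genotypes did not overlap. COL7 rose by 5.66 ± 0.25 on the log2 scale in 35S:CO (SE, adjusted p 3.7e-07), or 50.7-fold in mean CPM.

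COL6 and COL16, relatives of COL7 with a single B-box, rose less. COL6 went from 140 ± 28.2 to 231 ± 34.7 CPM (SD over 3 replicates), which is 0.73 on the log2 scale (adjusted p 0.018). COL16 went from 151 ± 24.8 to 247 ± 28.5 CPM, a log2 change of 0.71 (adjusted p 0.0095). COL13, a regulator of seedling elongation in light, went from 16.0 ± 2.32 to 10.5 ± 0.883 CPM, a log2 change of -0.61 (adjusted p 0.0096). In SUC2:CO, 1 of the 8 changed (12.5%), below the 32.3% of all tested genes, and the median log2 fold change of the 8 was 0.13. COL7 was higher there by 0.89 ± 0.30 on the log2 scale (SE, adjusted p 0.046), a call that held in 10 of the 18 alternatives. It was lost without SUC2:CO replicate 2 or 3, without Col-0 replicate 1 or 3 and without 35S:CO replicate 1, at adjusted p of 0.0556 to 0.162, with limma-voom at 0.277, and in both fits of only these genotypes.

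Between the lines 3 of the 8 differed, where 18.8% of all tested genes did, and the median log2 difference of the 8 was 0.20. COL7 was higher in 35S:CO by 4.77 ± 0.23 on the log2 scale (SE, adjusted p 1.7e-06). COL13 was lower in 35S:CO, at -0.91 ± 0.12 (SE, adjusted p 0.00088). COL8 was higher by 1.21 ± 0.37 (SE, adjusted p 0.045), with overlapping replicates, and passed in 10 of the 18 alternatives. It was lost without any one of the 3 SUC2:CO replicates, 35S:CO replicate 1 or 2 or Col-0 replicate 1, with limma-voom, and in the blocked fit of only these lines. COL10, COL14 and COL15 passed in none of the 3 comparisons.

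**Figure D4:**
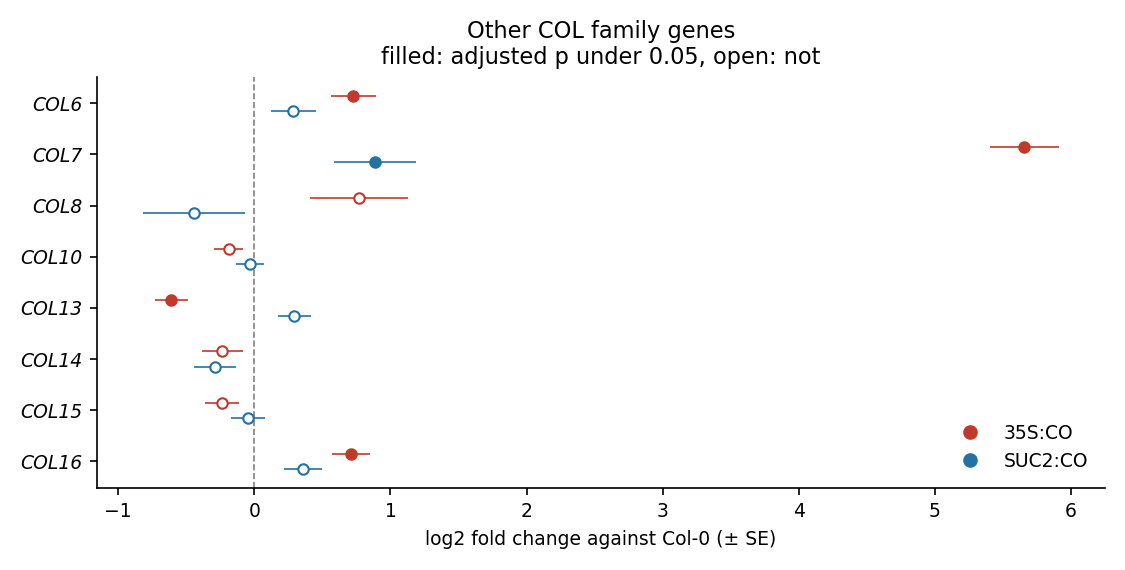
log2 fold change against Col-0, with its SE, of the 8 tested COL genes outside the 7 members, in 35S:CO and SUC2:CO. Filled points have an adjusted p under 0.05. COL7 stands at 5.66 in 35S:CO and 0.89 in SUC2:CO, and COL13 is the gene called lower, at -0.61 in 35S:CO.

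Of all genes compared, BBX32 had the profile over the 9 samples that was least different from that of CO, though the match was loose. Likeness was the root mean square difference between log2(CPM + 0.5) profiles centred on their Col-0 means, over 16430 genes. BBX32, a B-box protein without a CCT domain, was first at 0.804 log2 units, and its means were 0.562 CPM in Col-0, 30.5 CPM in 35S:CO and 3.35 CPM in SUC2:CO. AT4G34550 followed at 0.944, AT3G24463 at 0.946, AT3G24460 at 1.01 and LEA3 at 1.06. The nearest genes of the other members lay at 0.0503 to 0.145. In Col-0, BBX32, AT4G34550 and AT3G24463 were at 0.562, 0.346 and 0.294 CPM, so the added 0.5 weighs on their distances. AT4G34550 and AT3G24463 passed the filter on mean level through their 35S:CO means of 26.5 and 25.2 CPM. AT3G24460 and AT3G24463 overlap in the annotation, so their counts may not be independent. For COL1 the closest genes were AT4G14240 (0.126) and AT5G54930 (0.145), and for COL5 they were AT5G43440 (0.0841) and DYL1 (0.108). DYL1, a dormancy-associated gene, had log2 fold changes of -0.56 in 35S:CO and 0.72 in SUC2:CO.

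For COL4 the closest genes were ACD2 (0.0517), which acts in chlorophyll breakdown, and SPA4 (0.0568), which encodes a partner of COP1. For COL2 they were MAP65-4 (0.106) and AT3G13740 (0.116), for COL3 AT1G68260 (0.0597) and AT5G22400 (0.0617), and for COL9 AT1G60010 (0.0503) and AT1G55760 (0.0506).

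Among the genes that act around CO, 31 were listed and all were tested. In 35S:CO, 15 of them changed, 12 higher and 3 lower, and in SUC2:CO 15 changed, all higher, where 11.8% and 32.3% of all genes were called. Their median log2 fold changes were 0.12 and 0.36. Between the lines 6 differed (19.4%), 2 higher and 4 lower in 35S:CO, close to the 18.8% of all tested genes.

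Of the 10 regulators of CO transcription, 7 changed in 35S:CO and 5 in SUC2:CO, where 11.8% and 32.3% of all tested genes were called. GI and the repressors CDF1, CDF2, CDF3 and CDF5 were higher in both lines, by between 0.91 and 1.64 on the log2 scale. FKF1, the light-sensing F-box protein that removes CDF proteins, went from 22.1 ± 1.53 to 15.8 ± 2.28 CPM in 35S:CO (SD, n = 3 each) and differed between the lines by -0.78 (adjusted p 0.0015). Its fall against Col-0 (-0.48, adjusted p 0.022) held in 13 of 18 alternatives, and was lost without 35S:CO replicate 1 or 3 or Col-0 replicate 1 or 2 and in a fit of only these genotypes (0.0788, or 0.0246 with the replicate block). FBH4, a bHLH activator of CO, went from 30.4 ± 6.64 to 17.1 ± 2.61 CPM in 35S:CO, a log2 change of -0.83 (adjusted p 0.0088, and 0.0586 without 35S:CO replicate 2). FBH1, FBH2 and FBH3 passed in no comparison.

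Of the 10 regulators of CO protein, SPA1 and SPA4, which act with COP1 to degrade CO, were higher in both lines. SPA1 went from 51.1 ± 4.67 CPM in Col-0 to 74.4 ± 4.51 in 35S:CO and 69.0 ± 3.78 in SUC2:CO (SD, n = 3 each). The log2 changes were 0.54 (adjusted p 0.0050) and 0.43 (adjusted p 0.0073). SPA4 rose by 0.53 (adjusted p 0.0093) and 0.34 (adjusted p 0.031). PHYA, a photoreceptor that stabilises CO, had a log2 fold change against Col-0 of -0.38 in 35S:CO (adjusted p 0.024, under 0.05 in 9 of 18 alternatives, and lost without 35S:CO replicate 1 or 2, Col-0 replicate 2 or 3 or SUC2:CO replicate 2 or 3). This call was also lost with library totals (0.056), without the filter on low counts (0.0505) and in a fit of only these genotypes (0.094, or 0.033 with the replicate block). The log2 difference of PHYA between the lines was -0.59 (adjusted p 0.0021). CRY2 also differed between the lines, by -0.52 (adjusted p 0.025, under 0.05 in 13 of 18 alternatives, and lost without 35S:CO replicate 1 or 3 or any one of the SUC2:CO replicates). COP1 itself passed in no comparison. SPA3 and CRY1 were higher in SUC2:CO alone among the comparisons with Col-0, at 0.38 and 0.45, and their difference between the lines did not pass the test. In SUC2:CO the calls of SPA3 and SPA4 were lost without any one of the SUC2:CO replicates or Col-0 replicate 1 or 3, at adjusted p of 0.0537 to 0.101, and that of CRY1 without SUC2:CO replicate 2 or 3 or Col-0 replicate 1 or 3, at 0.067 to 0.087.

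Of the 8 partners, the largest changes were in the microproteins BBX30 and BBX31, small B-box proteins that bind CO and hold it in an inactive complex. BBX31 had 4, 12 and 1 counts in the Col-0 libraries, and its means were 0.228 ± 0.241 CPM in Col-0, 11.4 ± 4.36 in 35S:CO and 1.30 ± 0.341 in SUC2:CO (SD, n = 3 each). It rose by 5.68 ± 0.56 in 35S:CO (SE, adjusted p 0.00012) and by 2.55 ± 0.62 in SUC2:CO (SE, adjusted p 0.011, or 0.0771 with limma-voom), and differed between the lines by 3.13 ± 0.45 (SE, adjusted p 0.0013). Without Col-0 replicate 2, which held the 12 counts, the rises of BBX31 were 6.92 and 3.75, and over the alternatives they ran from 5.14 to 6.92 and from 2.01 to 3.75. BBX30 rose by 2.41 ± 0.37 (SE, adjusted p 0.0022) and 1.97 ± 0.37 (SE, adjusted p 0.0036). NF-YC4, an NF-Y subunit, was higher in SUC2:CO by 0.36 (adjusted p 0.036, under 0.05 in 13 of 18 alternatives, and lost without any one of the SUC2:CO replicates or Col-0 replicate 1 or 3). The other NF-Y subunits and the corepressor TPL passed in no comparison.

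All 3 targets, FT, TSF and SOC1, were higher in both lines, where 11.8% and 32.3% of all tested genes were called in 35S:CO and SUC2:CO. FT was at 113 ± 31.5 CPM in 35S:CO and 337 ± 24.8 CPM in SUC2:CO, against 2.27 ± 0.591 CPM in Col-0 (SD, n = 3 each). SOC1 had the opposite order between the lines, at 53.4 ± 11.1 and 31.01 ± 2.28 CPM. TSF was near the floor in Col-0, with 0, 10 and 3 counts. It rose by 4.31 ± 0.71 in 35S:CO and by 4.02 ± 0.71 in SUC2:CO on the log2 scale (SE, adjusted p 0.0033 and 0.0025). Over the alternatives these rises ran from 3.7 to 5.9 and from 3.4 to 5.5.

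**Figure D5:**
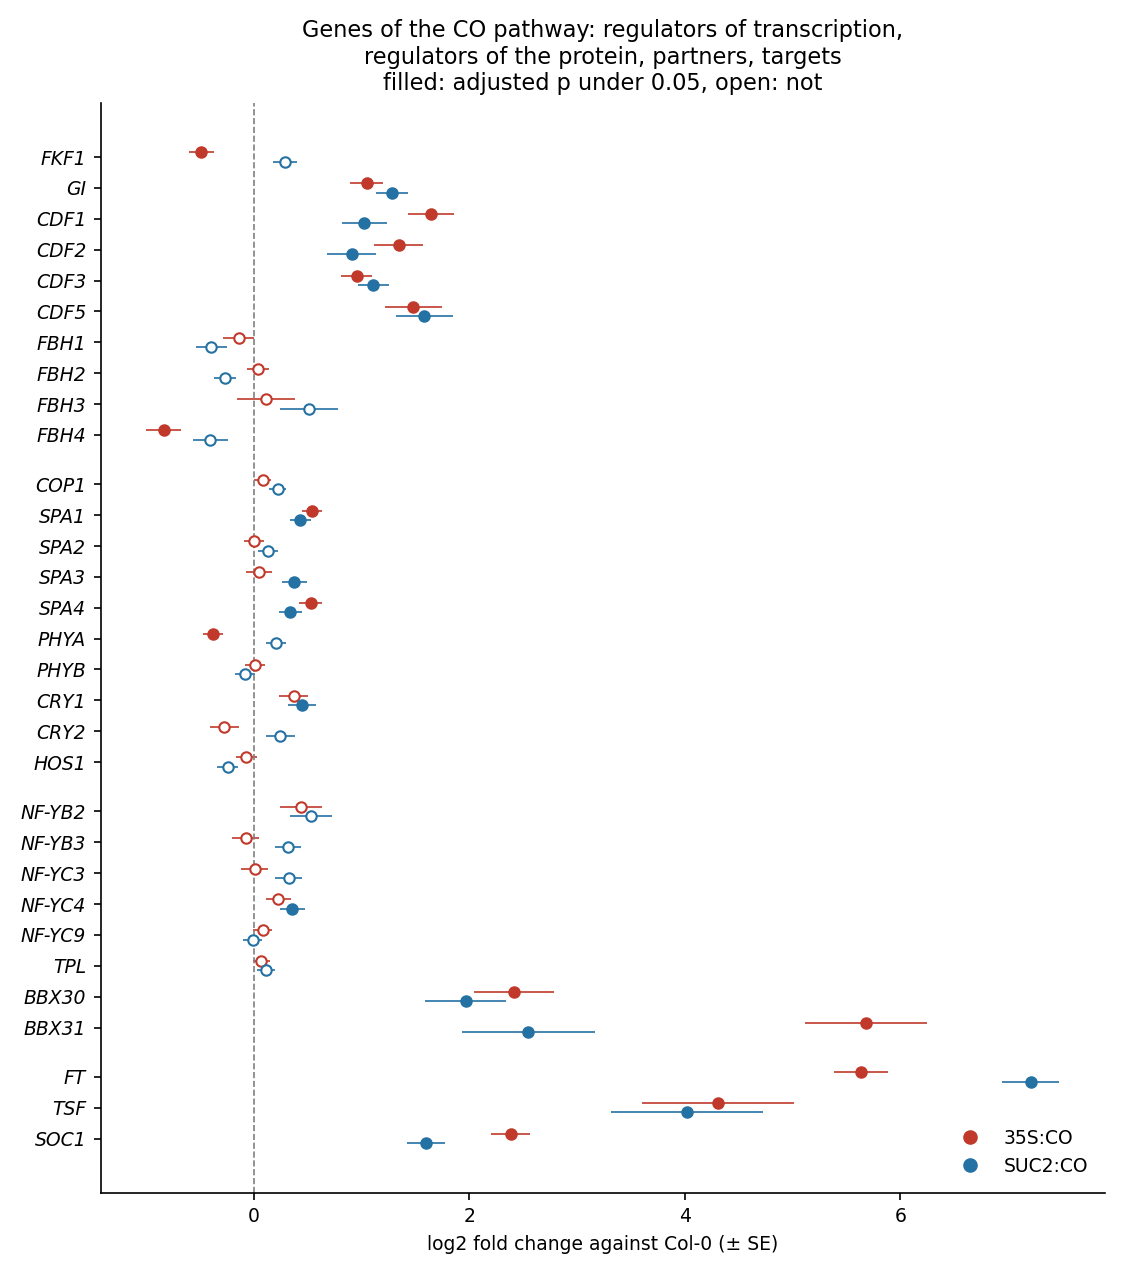
log2 fold change against Col-0, with its SE, of the 31 genes of the CO pathway in 35S:CO and SUC2:CO, in blocks for regulators of CO transcription, regulators of CO protein, partners and targets. Filled points have an adjusted p under 0.05. Of the genes called in 35S:CO, FKF1, FBH4 and PHYA lie below 0, while the 15 genes called in SUC2:CO lie above 0.

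The 250 bases before each annotated gene start were searched on both strands in the 7 members and the 10 other COL genes, and in the same window of 27443 protein-coding genes. The CO-responsive element, TGTG and ATG with 2 or 3 bases of any kind between them, was found in none of the 17 windows, and in 3.34% and 3.9% of all windows. CCACA, a sequence to which CO complexes bind, was found in 7 of the 17, among them 2 of the 7 members, COL4 and COL9, and in 28.4% of all windows. The evening element AAAATATCT was found in 2 of the 17, COL10 and, 181 to 189 bases before the start, COL2, and in 2.36% of all windows. The G-box CACGTG was found in 3 of the 17, COL11, COL12 and, 164 to 169 bases before the start, COL4, and in 6.49% of all windows. The COL4 window ends at the start codon because its gene model holds no UTR. CO, COL1, COL3, COL5, COL6, COL7, COL14 and COL15 held none of these sequences in this window.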

How the data were processed

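RNA of 9 seedling samples was sequenced from strand-specific libraries, per the labels' protocols. The authors deposited raw counts per gene, and the submitters' processing notes name FastQC, STAR, featureCounts, limma and TAIR10, without versions. Members and gene lists were chosen with earlier results of these data known. Counts were fitted with edgeR 4.0.16 (R 4.3.3): filterByExpr, TMM scaling (factors 0.942 to 1.09), a quasi-likelihood fit with 1 term per genotype over all 9 samples, two-sided tests, and Benjamini-Hochberg adjustment over the 19149 tested genes, with calls at an adjusted p under 0.05. SE and 95% intervals come from the F statistic. CPM uses TMM-scaled totals.

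Named genes were the members, called list genes, neighbours of CO and COL1, and the genes most like a member (5 for CO, 2 for each other) with a mean log2 level of at least 1. Lengths, neighbours and sequences came from RefSeq TAIR10.1 (pysam 0.24.0). Same-numbered samples of 35S:CO and Col-0 deviated together (correlations across genes of 0.435, 0.302 and 0.248). Those of SUC2:CO did not reach 0.12 with Col-0. No label says that a replicate number marks a shared batch, so the replicate block was used as an alternative only. The main values, with the 11.8% of all tested genes called in 35S:CO, come from the fit without a block. Alternatives were other filters, RLE scaling, library totals, DESeq2 1.42.0, limma-voom 3.58.1, fits of the compared genotypes, a replicate block, and leaving out each sample. The code of the fits was tried on simulated counts with the same set spread for every gene and no shared replicate effect. That trial checks the code and does not bear on the calls here.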

Additional observations from a re-analysis of the deposited data

Results flagged for a closer look

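In 3 of the 7 genes the change against Col-0 differed between the lines by the direct test of 35S:CO against SUC2:CO, where 18.8% of all tested genes were called. The log2 difference was 3.58 for CO (95% interval 3.28 to 3.88), 1.28 for COL1 (0.94 to 1.62) and -1.20 for COL5 (-1.51 to -0.90). COL5 was lower than Col-0 in all 3 replicates of 35S:CO and higher in all 3 of SUC2:CO. Promoter, tag and the co-10 background differ together between the lines and cannot be told apart.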

How the results depend on the processing

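The count of changed members stayed within 1.5 times its value in all 18 alternatives, and ran from 3 to 4 in 35S:CO, 2 to 3 in SUC2:CO and 3 to 3 between the lines when each sample was left out in turn. With the replicate block it was 4, 3 and 3, and the block changed no call among the members. Over all genes, 2261, 6176 and 3595 were called. In 35S:CO the count was 1260 in a fit of only 35S:CO and Col-0, 3309 in that fit with the replicate block, and 3033 with the block over all 9 samples. The counts of the 3 comparisons ran from 1159 to 2167, 3572 to 6615 and 1584 to 4110 with a sample left out. Among the 8 other COL genes, the count of 1 in SUC2:CO became 2 with library totals, DESeq2 or the replicate block. It became 0 with limma-voom, in the fit of only these genotypes, and there with the block too, with 2, 3 and 2 at an unadjusted p under 0.05. With a sample left out it ran from 0 to 3. Between the lines the count of 3 became 5 with library totals, and ran from 2 to 5 with a sample left out. CO pathway counts of 15, 15 and 6 ran from 13 to 15, 11 to 18 and 5 to 8 with a sample left out, and from 13 to 16, 14 to 18 and 6 to 9 over the other alternatives. Reversals were near 0. The log2 fold change of COL3 in SUC2:CO moved from 0.04 to -0.00286 with library totals, and ran from -0.00789 (without Col-0 replicate 1) to 0.0764 with a sample left out. That of COL9 in 35S:CO moved from -0.14 to 0.0184 without Col-0 replicate 2, and its lowest value was -0.21. The cause was not tested. Counts per library were fewest among the members for COL2, at 56 to 135.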
